A study of Macaca mulatta with 24 samples.

Results

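The genes that encode the proteins of the cytosolic ribosome were followed in omental white adipose tissue (WAT) of rhesus macaques. Members were the genes of the count table whose symbol in a gene name table was RPL or RPS plus a number, with or without a suffix A, X, L or Y, or was *RPLP0*, *RPLP1*, *RPLP2* or *RPSA*. This gave 65 of the 32386 genes listed, 36 of the large and 29 of the small subunit, under 61 different symbols, and 59 of them (35 large, 24 small) held enough counts to be tested. The other 6 were *RPL3L*, the striated muscle form of *RPL3*, with 0 to 11 counts per animal, *RPS15A* with 0 to 1, and second entries of *RPS2*, *RPS24*, *RPS27A* and *RPSA* that reached at most 6. *RPS6*, *RPLP0*, *RPL11*, *RPL10L* and *RPL39L* were matched to no gene by this table and were not analysed as members.

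All animals were females, 6 per group. The controls (*C*) carried cholesterol implants and ate monkey chow, *T* animals carried testosterone implants and ate chow, *WSD* animals carried cholesterol implants and ate a high-fat Western-style diet, and *T* + *WSD* animals received both the testosterone implant and the diet. Treatment had lasted 3 years when the fat was biopsied. The labels give an age of 4 years, below the age stated in the study's methods, and the 24 animals had been picked from larger groups because they represented the fat mass and insulin findings of those groups. Each library came from a piece of whole tissue, so that in these bulk samples fewer cells of a type and less RNA per cell cannot be told apart.

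Each ribosome has a small subunit, which reads the messenger RNA, and a large subunit, which joins amino acids and lets the growing chain out through a tunnel. Both are built in the nucleolus from ribosomal RNA and proteins that are needed in nearly equal numbers, and most of these proteins have no task outside the ribosome. The messages for the ribosomal proteins and for several translation factors begin with a terminal oligopyrimidine (TOP) tract, through which mTOR signalling sets their use and stability together.

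The libraries held 6899185 to 28270776 counts, and the members took up 46409 to 576887 of them. The unnamed gene ENSMMUG00000038258 accounted for 9.92% to 54.7% of all counts in 2 libraries per group, 8 altogether, and for at most 2.51% in the other 16, and values are therefore also given within each of these kinds of library. Levels (CPM) are counts over the TMM-scaled library size, times 1000000, and differences are log2 fold changes. Adjusted p values are those of edgeR's quasi-likelihood test, two-sided, after Benjamini-Hochberg adjustment over the 15207 genes tested, and a gene is said to have risen or fallen where this p was under 0.05. Levels are compared between animals and not between genes, since gene lengths were not used here. The adipocyte genes *ADIPOQ* (adiponectin, 381 to 2124 CPM) and *PLIN1* (the lipid droplet coat protein perilipin, 315 to 2812) were found in every animal, while the fatty acid carrier *FABP4* was listed at no more than 3.26.

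In *T* + *WSD* compared with *C*, ribosomal protein transcripts were lower almost throughout: 48 of 59 fell, 0 rose, and 58 of 59 log2 fold changes were below 0. Over all 15207 tested genes, 8354 were below 0. The 48 that fell are 81.4% of the members, while 9.94% of all tested genes fell and 7.18% rose in the same comparison. The log2 fold changes of the 48 ran from -0.34 to -0.80, a range that depends on the threshold, and those of all 59 from -0.80 to 0.32. The median over the members was -0.46 (quartiles -0.56 and -0.38), or 0.725 of the control level, beside a median of -0.04 over all tested genes. The study also required a fold change over 1.5 of a differentially expressed gene (DEG). Both criteria were passed by 9 of the 59 tested members in the lower direction, beside 5.29% of all tested genes. Among these 9 were *RPL5*, *RPLP1*, *RPS3*, *RPS3A*, *RPS12*, *RPS21*, *RPS24* and *RPS27A*.

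Summed over the 65 members, the level was 17605 ± 3865 CPM (SD, n = 6) in *C*, from 12759 to 22321 with a median of 16619. It was 15736 ± 1628 (SD, n = 6) in *T*, from 13613 to 18030, and 15419 ± 2024 (SD, n = 6) in *WSD*, from 12676 to 17943. In *T* + *WSD* it was 12581 ± 580 (SD, n = 6), from 11787 to 13119. Thus 5 of the 6 *C* animals lay above every *T* + *WSD* animal, and the lowest *C* animal, replicate 5, lay inside their range. As a share of the counts outside ENSMMUG00000038258, the members held 2.02% ± 0.474 (SD, n = 6) in *C* and 1.46% ± 0.0459 in *T* + *WSD*, with *T* (1.85% ± 0.206) and *WSD* (1.69% ± 0.198) between them. The highest single share, 2.69% in *C* replicate 3, had a 95% Wilson interval of 2.69% to 2.70%, and the lowest, 1.40% in *WSD* replicate 23, one of 1.39% to 1.40%, which cover counting error only.

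The members moved together within each animal, and the animals of *C* were the most spread. The median log2 distance of the 59 tested members from their *C* mean was 0.36 in *C* replicate 3, 0.34 in *C* replicate 1 and -0.41 in *C* replicate 5. In replicate 3 all but 2 members and in replicate 1 all but 3 lay above the *C* mean, whereas in replicate 5 all 59 lay below it. In the 6 *T* + *WSD* animals the median distance ran only from -0.56 to -0.35, with 56 to 58 of 59 members below the *C* mean in each. The coefficient of variation was smaller in *T* + *WSD* than in *C* for 57 of 59 members. The share over all genes was not computed, and members that move together are not separate results. In *T* the median distance ran from -0.35 to 0.06, inside the range of *C*. The lowest *T* animal (replicate 14, -0.351) lay just above the highest *T* + *WSD* animal (replicate 11, -0.354). In *WSD* it ran from -0.43 to 0.05, overlapping both *C* and *T* + *WSD*.

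**Figure D1:**
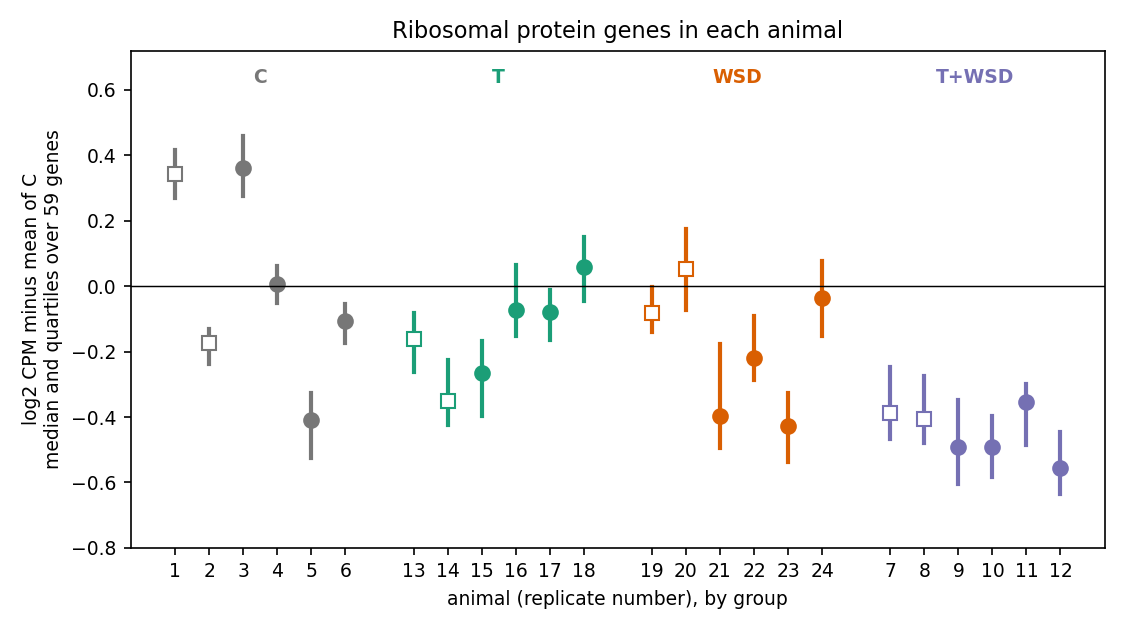
Median (symbol) and quartiles (bar) of log2 CPM minus the mean of *C* over the 59 tested ribosomal protein genes in each animal, by group and replicate number, with open squares for the 8 libraries in which ENSMMUG00000038258 took over 5% of the counts and circles for the other 16. The 6 *T* + *WSD* animals lie between -0.56 and -0.35, and *C* runs from -0.41 to 0.36.

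The 2 kinds of library gave the same order for *C* and *T* + *WSD*. Among the 16 libraries the mean of the median distances was highest in *C* (-0.04), followed by *T* (-0.09), *WSD* (-0.27) and *T* + *WSD* (-0.47; n = 4 each). Among the 8 others the values were 0.09, -0.26, -0.01 and -0.40 for these groups (n = 2 each). In a fit to the 16 libraries alone, the median log2 fold change of the members in *T* + *WSD* against *C* was -0.43. At an unadjusted p under 0.05, 49 members were lower, but the share of all genes at that threshold was not computed. After adjustment 0 members passed, where 0.272% of all genes fell.

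The count of falling members rested in part on the high controls. Without *C* replicate 1 it was 23, without *C* replicate 3 it was 28, and without the low *C* replicate 5 it was 50, while the median log2 fold change stayed between -0.54 and -0.37 when any 1 of the 24 animals was left out.

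**Figure D2:**
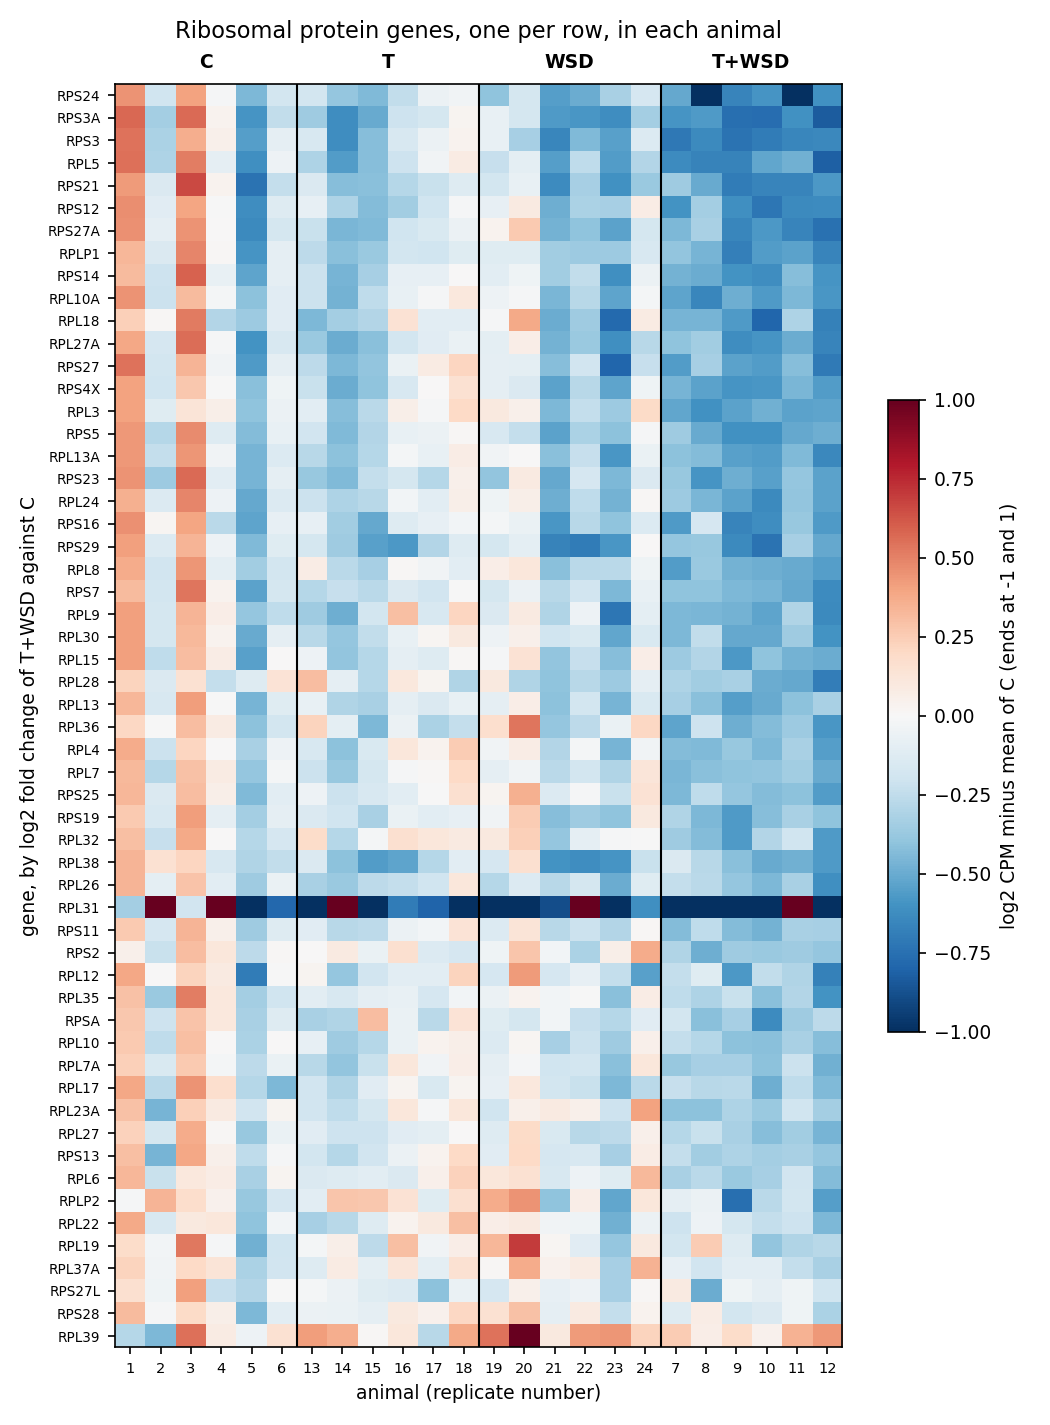
Of the 59 tested ribosomal protein genes, 56 (rows, ordered by log2 fold change in *T* + *WSD* against *C*) are shown in each animal (columns, by group), coloured by log2 CPM minus the mean of *C*, with colours ending at -1 and 1. Columns *C* 1 and 3 are red nearly from top to bottom, *C* 5 and the *T* + *WSD* columns are blue, and the *RPL31* row does not follow the columns.

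The small subunit binds the message and the initiator tRNA, and 21 of its 24 tested members fell in *T* + *WSD* against *C*, with a median log2 fold change of -0.54. *RPS24* (ENSMMUG00000030562), a small-subunit protein needed to cut the ribosomal RNA precursor and one of the genes mutated in Diamond-Blackfan anaemia, showed the largest fall of all members. Its level was 131, 168 and 246 CPM (lowest, median and highest of 6) in *C*, 132, 154 and 176 in *T*, 122, 140 and 160 in *WSD*, and 70.7, 116 and 126 in *T* + *WSD*. All 6 *T* + *WSD* animals lay below every *C* and every *T* animal, and they overlapped *WSD*. The log2 fold change against *C* was -0.80 (SE 0.15, adjusted p = 0.00322), a fall of the mean from 184 to 106 CPM.

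*RPS3A* (ENSMMUG00000002676), on the platform of the small subunit near which the message leaves, had 140, 197 and 315 CPM in *C* and 118, 132 and 142 in *T* + *WSD*, where the highest animal just overlapped the lowest control. Its log2 fold change was -0.76 (SE 0.17, adjusted p = 0.00694). *RPS3* (ENSMMUG00000009019), which lines the channel through which the message enters, had 370, 536 and 791 CPM in *C* and 325, 340 and 348 in *T* + *WSD*, with no overlap. The *T* + *WSD* animals were nearly uniform in *RPS3* (338 ± 9.97 CPM, SD, n = 6, against 561 ± 159 in *C*), and the log2 fold change was -0.73 (SE 0.15, adjusted p = 0.00505). *RPS21* (ENSMMUG00000005006), which sits beside *RPSA* on the small subunit, went from 81.6 ± 28.0 CPM in *C* (46.1 to 123) to 52.0 ± 4.95 in *T* + *WSD* (47.4 to 60.6; SD, n = 6 each), with a log2 fold change of -0.65 (SE 0.16, adjusted p = 0.0111), although the lowest control lay below all *T* + *WSD* animals. *RPS12* (ENSMMUG00000013237), known from flies as the protein that marks cells short of other ribosomal proteins, had 184, 272 and 391 CPM in *C* and 172, 184 and 223 in *T* + *WSD*, with a log2 fold change of -0.63 (SE 0.14, adjusted p = 0.00740).

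Further small-subunit genes were described for their roles. *RPS27A* (ENSMMUG00000015563), made as a fusion with ubiquitin, fell from 298 ± 82.6 to 195 ± 21.8 CPM (SD, n = 6 each; log2 fold change -0.61, adjusted p = 0.0141). *RPS4X*, the X-linked gene whose copy on the primate Y chromosome is *RPS4Y1*, had 243, 320 and 432 CPM in *C* and 216, 223 and 237 in *T* + *WSD*, and its groups did not overlap (log2 fold change -0.56, adjusted p = 0.00836). *RPS19*, the gene most often mutated in Diamond-Blackfan anaemia, fell by 0.44 on the log2 scale (adjusted p = 0.0209), and *RPSA*, also known as a precursor of the laminin receptor, fell by 0.38 (adjusted p = 0.0352). *RPS19* lost its call when *C* replicate 1 (adjusted p = 0.0668) or *C* replicate 3 (0.0640) was left out. *RPSA* lost its call without any of *C* replicates 1, 3 and 4 and *T* + *WSD* replicates 8, 9, 10 and 11, with adjusted p values from 0.0551 to 0.120. Among all alternative fits run, animals left out included, *RPS19* lost its call in 4 and *RPSA* in 13.

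The small-subunit members that did not pass included *RPS27L* and *RPS28*. *RPS28*, a small protein near the exit of the message, was at 164, 227 and 279 CPM in *C* and 179, 204 and 236 in *T* + *WSD* (log2 fold change -0.14, SE 0.11, adjusted p = 0.405). *RPS27L*, a paralog of *RPS27*, was at 17.1, 20.8 and 28.5 CPM in *C* and 14.7, 20.2 and 22.6 in *T* + *WSD* (-0.14, SE 0.12, adjusted p = 0.429). In both genes the *C* and *T* + *WSD* animals overlapped.

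**Figure D3:**
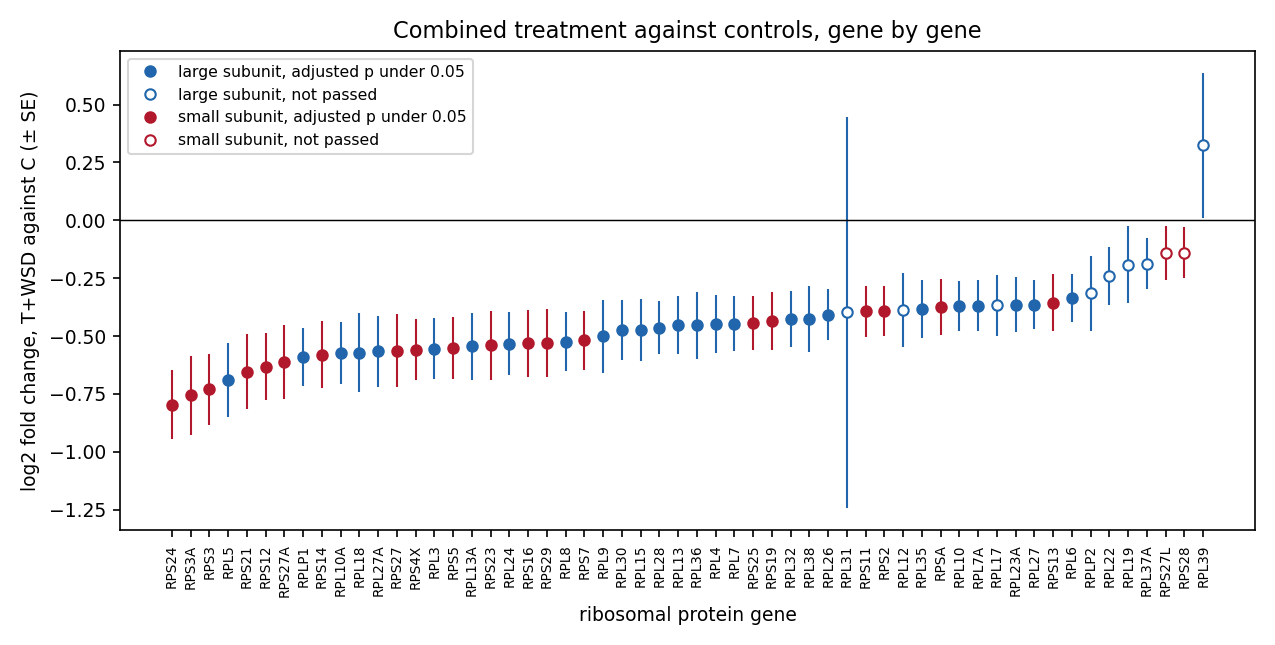
Log2 fold change (symbol) and SE (bar) in *T* + *WSD* against *C* for 56 of the 59 tested ribosomal protein genes, with filled symbols for adjusted p under 0.05, red for the small and blue for the large subunit. The symbols run from -0.80 for *RPS24* to 0.32 for *RPL39*, the 1 gene above 0, and *RPL31* has the longest bar.

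The large subunit carries the peptidyl transferase centre, and 27 of its 35 tested members fell, with a median log2 fold change of -0.45. Whether this median differed from that of the small subunit was not tested. *RPL5* (ENSMMUG00000005072), which carries the smallest ribosomal RNA into the large subunit, had 105, 152 and 235 CPM in *C* and 90.5, 102 and 114 in *T* + *WSD*. Its log2 fold change was -0.69 (SE 0.16, adjusted p = 0.00777), with the lowest control inside the *T* + *WSD* range. *RPL3* (ENSMMUG00000010029), which reaches into the catalytic centre, had 388, 515 and 680 CPM in *C*, 382, 495 and 590 in *T*, 376, 485 and 589 in *WSD*, and 338, 355 and 369 in *T* + *WSD*. All 6 *T* + *WSD* animals lay below every animal of the other groups in *RPL3*, and the log2 fold change against *C* was -0.56 (SE 0.13, adjusted p = 0.00876). *RPL13A*, which also leaves the ribosome to silence inflammatory messages, fell from 822 ± 214 to 563 ± 35.3 CPM (SD, n = 6 each; log2 fold change -0.54, adjusted p = 0.0143).

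Among the acidic stalk proteins that bring elongation factors to the ribosome, *RPLP1* and *RPLP2* were listed. *RPLP1* (ENSMMUG00000014888) had 293, 429 and 618 CPM in *C* and 274, 301 and 335 in *T* + *WSD*, a log2 fold change of -0.59 (SE 0.13, adjusted p = 0.00558). *RPLP2*, its partner in the same dimer, had 232, 305 and 384 CPM in *C* and 179, 259 and 290 in *T* + *WSD*, a log2 fold change of -0.32 (SE 0.16) that did not pass (adjusted p = 0.180). The difference between the 2 partners was not tested.

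*RPL38*, known for its part in translating Hox messages, fell by 0.43 on the log2 scale (adjusted p = 0.0419), but it did not pass when any of *C* replicates 1, 2 and 3 or *T* + *WSD* replicates 8, 9, 10, 11 and 12 was left out (adjusted p from 0.0639 to 0.140). Among all alternative fits run, animals left out included, *RPL38* lost its call in 12. *RPL22*, which T cell development requires, was at 310 ± 56.8 CPM in *C* and 262 ± 23.2 in *T* + *WSD* (SD, n = 6 each; log2 fold change -0.24, adjusted p = 0.195). Its paralog *RPL22L1*, outside the rule for members, fell by 0.63 (adjusted p = 0.00795).

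Counted without a model, all 6 *T* + *WSD* animals lay below every *C* animal in 9 members, where this held for 4.12% of all tested genes. They included *RPS2*, *RPS3*, *RPS4X* and *RPS24* of the small and *RPL3*, *RPL8*, *RPL10A* and *RPL28* of the large subunit. *RPL8* and *RPL10A*, placed beside the catalytic centre and on the stalk near which spent tRNA leaves, had lowest controls of 361 and 348 CPM and highest *T* + *WSD* animals of 355 and 340.

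Large-subunit members that did not pass were *RPL12*, *RPL17*, *RPL19*, *RPL22*, *RPL31*, *RPL37A*, *RPL39* and *RPLP2*. The adjusted p was lowest for *RPL17* (0.0595; log2 fold change -0.37) and *RPL12* (0.0966; -0.39). *RPL39*, which lines the exit tunnel, had the 1 positive log2 fold change (0.32, SE 0.32, adjusted p = 0.514), from 3 to 53 counts per animal, so that its value is imprecise. *RPL31* (ENSMMUG00000009873), at the mouth of the tunnel, divided the animals differently. It was at 48.8 to 91.4 CPM in 5 animals, *C* replicates 2 and 4, *T* replicate 14, *WSD* replicate 22 and *T* + *WSD* replicate 11, and at 1.34 to 17.2 CPM in the other 19, a division at 20 CPM made after its values were seen. Its SE was accordingly large (log2 fold change -0.40, SE 0.85, adjusted p = 0.795).

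**Figure D4:**
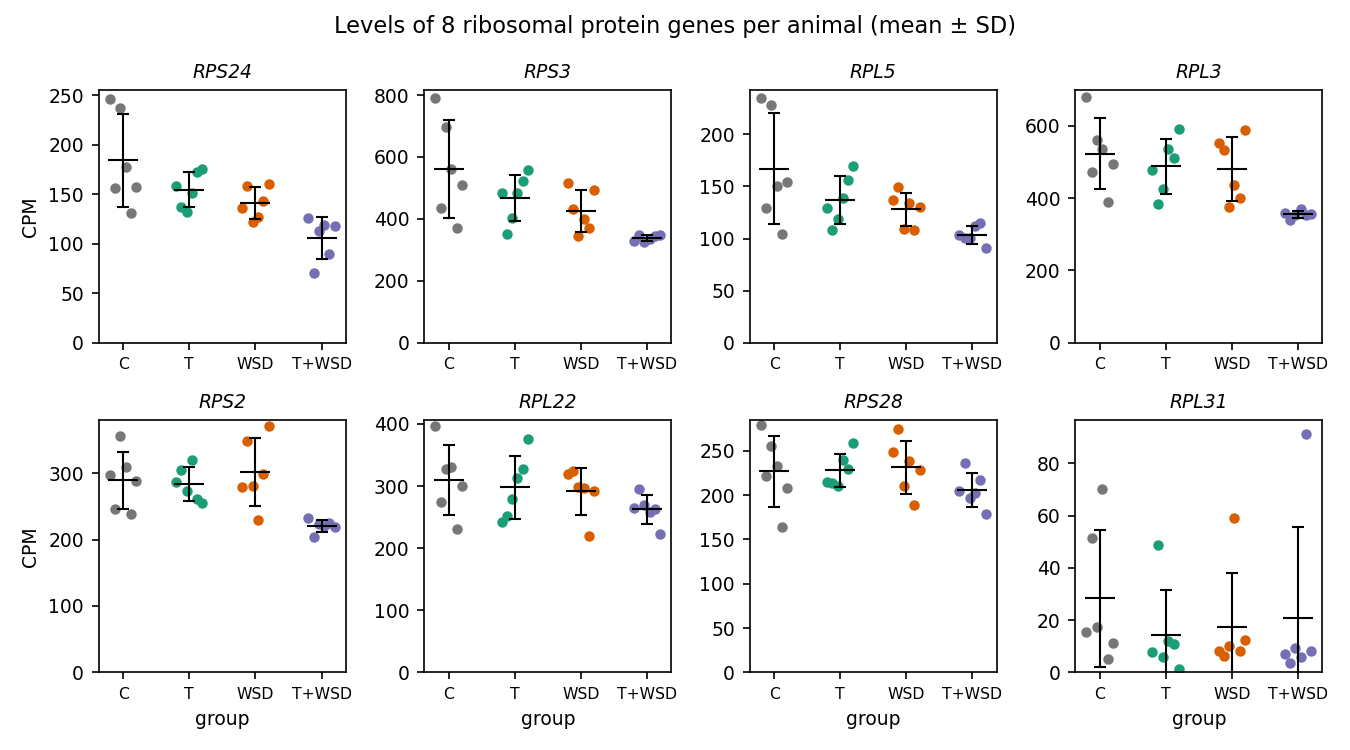
CPM per animal (points) with the group mean (long line) and SD (error bar) for 8 ribosomal protein genes in *C*, *T*, *WSD* and *T* + *WSD*, 6 animals each, each panel starting at 0. In *RPS3* and *RPL3* the *T* + *WSD* points form a narrow band below the *C* points, while *RPL22* and *RPS28* overlap and *RPL31* has 5 high animals.

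Diet alone and testosterone alone were each set against the same 6 *C* animals, so the values of these comparisons are given side by side and not correlated. In *WSD* against *C*, 0 of 59 members fell and 0 rose, as did 0% of all tested genes in the lower direction. By edgeR 14 members were lower and 1 higher at an unadjusted p under 0.05, beside 8.87% and 9.59% of all genes, with a smallest adjusted p of 0.178. DESeq2 called 0 members as well, where it called 1.33% of all genes lower and 1.27% higher. The median log2 fold change of the members was -0.21, beside -0.02 over all genes. In *T* against *C*, 0 of 59 members and 0% of all genes fell by edgeR, 6 members were lower and 0 higher at an unadjusted p under 0.05 (smallest adjusted p 0.547), beside 5.08% and 3.54% of all genes. DESeq2 called 0 members, where it called 0.0395% of all genes lower and 0.0263% higher, and the median of the members was -0.16. No member separated either single treatment from *C*, where all 6 treated animals lay below every control in 0.171% of all genes for *WSD* and 0.125% for *T*.

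Among the lowest values in *WSD* against *C* were those of *RPL31* (-0.67, SE 0.85) and *RPS3A* (-0.45, SE 0.17), and the highest belonged to *RPL39* (0.78, SE 0.31), *RPL19* (0.11, SE 0.17) and *RPL37A* (0.09, SE 0.11). In *T* against *C* the lowest were *RPL31* (-0.99, SE 0.86), the zinc-binding *RPS29* (-0.37, SE 0.15) and *RPS3A* (-0.36, SE 0.17), and the highest *RPL39* (0.23, SE 0.31), *RPLP2* (0.09, SE 0.16) and *RPL32* (0.02, SE 0.12). None of these passed after adjustment. The *T* + *WSD* mean was the lowest of the 4 groups in 55 of 59 members, and the *C* mean the highest in 48. The shares over all genes were not computed. Because the members moved together within each animal, they are not separate results.

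In *T* + *WSD* compared with *T*, 6 members fell, *RPL3*, *RPL28*, *RPL32*, *RPS2* and *RPS24* among them, or 10.2% of those tested, where 3.2% of all genes fell. The median log2 fold change was -0.30, and 40 members were lower at an unadjusted p under 0.05, beside 14.3% of all genes. *RPL28* had the lowest adjusted p (0.0315; log2 fold change -0.43, SE 0.11), with 50.1, 60.6 and 76.7 CPM in *T* and 37.8, 45.9 and 49.6 in *T* + *WSD*. All 6 *T* + *WSD* animals lay below every *T* animal in 15 members, among them *RPS3*, *RPS7*, *RPS25*, *RPL6*, *RPL13A* and *RPL27*, where this held for 3.1% of all genes. The count of 6 became 0 when *T* replicate 13, 16 or 17 or *T* + *WSD* replicate 8 or 10 was left out, 1 without *T* replicate 18 or *T* + *WSD* replicate 9 or 12, 2 without *T* + *WSD* replicate 7 or 11, and 10 without *C* replicate 1 or *T* replicate 14.

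In *T* + *WSD* compared with *WSD*, 2 members fell, *RPS2* and *RPS25*, or 3.39%, where 0.94% of all genes fell. The median was -0.29, and 34 members were lower at an unadjusted p under 0.05, beside 12.1% of all genes. *RPS2* (ENSMMUG00000029267), beside *RPS3* at the entry of the message, had 239, 293 and 356 CPM in *C*, 256, 281 and 320 in *T*, 230, 290 and 372 in *WSD*, and 204, 223 and 232 in *T* + *WSD*. Its *T* + *WSD* animals lay below all *C* and *T* animals and overlapped *WSD* by 1 animal, *WSD* replicate 22, and the log2 fold change against *WSD* was -0.45 (SE 0.11, adjusted p = 0.0370). *RPS25* (ENSMMUG00000016894), which internal ribosome entry sites need, had 99.6, 117 and 149 CPM in *WSD* and 78.8, 86.5 and 97.2 in *T* + *WSD*, without overlap (log2 fold change -0.46, SE 0.12, adjusted p = 0.0458). Separation from every *WSD* animal was seen in 5 members, *RPL3*, *RPL6*, *RPL7*, *RPLP1* and *RPS25*, beside 1.37% of all genes. The count became 0 when *C* replicate 2, *WSD* replicate 20 or 24, or any 1 of the 6 *T* + *WSD* animals was left out, 1 without *C* replicate 4 or 6, *T* replicate 13, 15, 16 or 17, or *WSD* replicate 19, 22 or 23, and 6 without *WSD* replicate 21.

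The interaction asks whether testosterone acted differently with the Western-style diet than with chow. It passed, at the study's adjusted p under 0.1, in 0 of 59 members by edgeR, where 0.289% of all genes passed in the lower direction. DESeq2 called 0 members as well, where it called 1.31% of all genes lower and 1.7% higher. The median over the members was -0.12 (48 of 59 below 0), beside -0.02 over all genes (7931 of 15207 below 0). At an unadjusted p under 0.05, 4 of 59 members were lower, beside 7.26% of all genes, so that their share lay near that of all genes. *RPS2* came closest to passing with -0.42 (SE 0.15, adjusted p = 0.222). Among the named members the lowest values beside *RPS2* were those of *RPL39* (-0.68, SE 0.44) and *RPLP2* (-0.45, SE 0.23), and the highest those of *RPL31* (1.26, SE 1.20), *RPL38* (0.28, SE 0.20) and *RPS29* (0.22, SE 0.21).

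Relatives that the rule left out were measured in the same fit of *T* + *WSD* against *C*. *FAU*, a ubiquitin-like fusion from which a small-subunit protein is cut, fell by 0.46 (adjusted p = 0.0133), *RPL36AL*, a retained copy of *RPL36A*, fell by 0.50 (adjusted p = 0.00586), and *RPL7L1*, a paralog of *RPL7*, was at -0.19 (adjusted p = 0.282). *RPS6*, the ribosomal target of S6 kinase, is named only in the study's own gene tables, which list it for its result in these samples and are no independent evidence. It had 279, 353 and 599 CPM in *C* and 232, 258 and 275 in *T* + *WSD*, without overlap (log2 fold change -0.63, adjusted p = 0.00933).

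Genes that work with the ribosome were read from lists of translation factors and other TOP genes, of ribosome assembly factors, and of genes that control ribosome production. Of 28 tested translation factors and TOP genes, 12 fell (42.9%, beside 9.94% of all genes) and 0 rose in *T* + *WSD* against *C*, with a median of -0.34. The largest fall was that of *TPT1* (-0.66, SE 0.17, adjusted p = 0.0123), a growth-related TOP gene, and *RACK1*, the scaffold protein of the small subunit, had 608 to 1035 CPM in *C* and 540 to 575 in *T* + *WSD* (-0.56, SE 0.12, adjusted p = 0.00509). *EEF1A1*, which delivers aminoacyl-tRNA, fell by 0.50 (adjusted p = 0.0371). *EIF3A*, the largest subunit of the initiation factor that binds the small subunit, had the highest value (0.22, adjusted p = 0.0646).

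Of 37 tested assembly factors, 7 fell (18.9%, beside 9.94% of all genes) and 1 rose, where 7.18% of all genes rose. The median was -0.22. *NOP58*, a core protein of the particles that methylate ribosomal RNA, fell by 0.53 (adjusted p = 0.0169), *EIF6*, which keeps the subunits apart until the large one is ready, fell by 0.50 (adjusted p = 0.00681), and the nucleolar GTPase *GNL3L* rose by 0.36 (adjusted p = 0.0145). *NOC2L* passed in the interaction (-0.45, SE 0.11, adjusted p = 0.0935). Of 19 tested genes that control ribosome production, 4 fell (21.1%, beside 9.94% of all genes) and 1 rose, where 7.18% of all genes rose. Whether counts this small differ from those shares was not tested. *MYC*, the transcription factor that drives ribosome synthesis, showed the largest fall, from 61.6 to 166 CPM in *C* to 29.1 to 52.7 in *T* + *WSD*, without overlap (log2 fold change -1.30, SE 0.33, adjusted p = 0.0126). Its partner *MAX*, the mTOR complex subunit *RICTOR* and the RNA polymerase subunit *POLR1D* also fell, and *TSC2*, an inhibitor of mTOR, rose by 0.27 (adjusted p = 0.0201).

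Mitochondria hold their own ribosomes, whose proteins are coded by separate nuclear genes. Of 44 tested mitochondrial ribosomal protein genes, 5 fell in *T* + *WSD* against *C* and 0 rose, a share of 11.4% near the 9.94% of all genes, with a median of -0.16 beside -0.46 in the cytosolic members. *MRPS30* fell most (-0.59, SE 0.15), and the smallest adjusted p of the set was 0.0103. In *WSD* against *C* their median was 0.25, with 0 called and 17 higher at an unadjusted p under 0.05 by edgeR, beside 9.59% of all genes, while the cytosolic median was -0.21. In *T* + *WSD* against *WSD*, 6 of them fell (13.6%, beside 0.94% of all genes; median -0.34), and in the interaction 3 passed in the lower direction (6.82%, beside 0.289%), *MRPL37* (-0.62, adjusted p = 0.0908), *MRPL10* (-0.51, adjusted p = 0.0908) and *MRPL45* (-0.65, adjusted p = 0.0997), with a median of -0.47 beside -0.12. The difference between the cytosolic and mitochondrial sets was not tested.

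**Figure D5:**
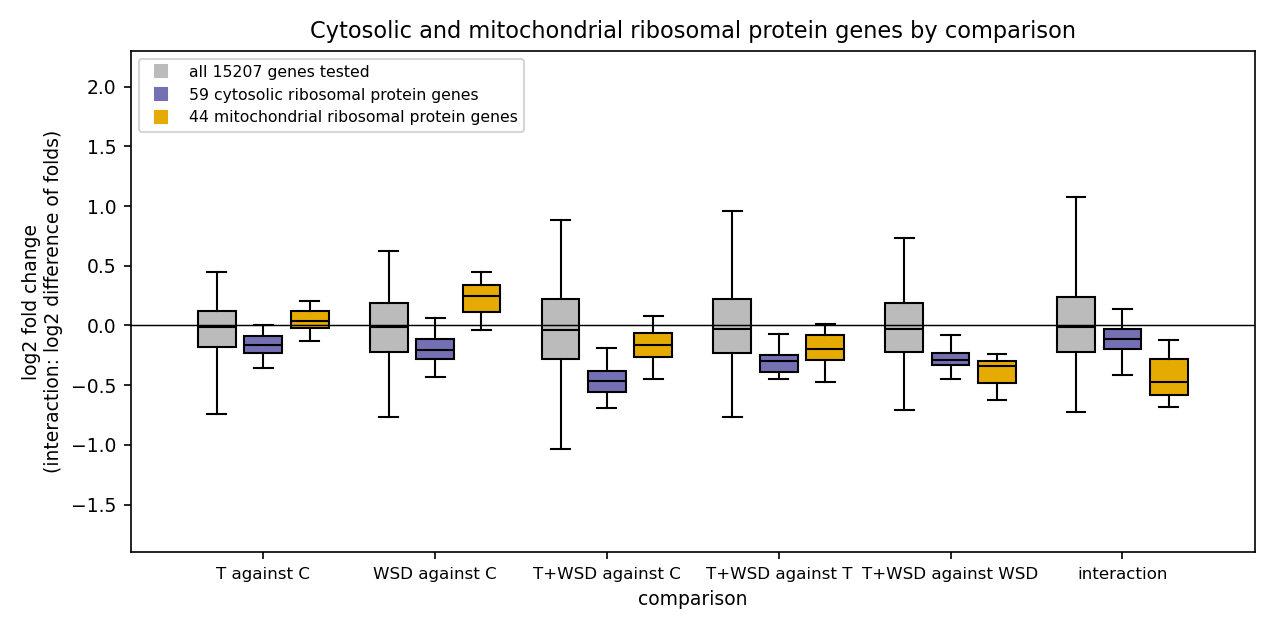
Log2 fold changes in 5 comparisons, and the log2 interaction of testosterone and diet, for all 15207 tested genes (grey), the 59 cytosolic (purple) and the 44 mitochondrial (yellow) ribosomal protein genes, as boxes of the quartiles with the median line and whiskers from the 5th to the 95th percentile. In *WSD* against *C* the cytosolic median lies at -0.21 and the mitochondrial one at 0.25, and in *T* + *WSD* against *C* both lie below 0.

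Markers of some other cell types moved between the same groups. Mesothelial cells, which cover the omentum, were tracked by 13 tested genes. Of these, 9 fell in *T* + *WSD* against *C* (median -2.11), where 9.94% of all genes fell. Their summed level ran from 2808 to 40064 CPM in *C*, 2922 to 18135 in *T*, 818 to 6245 in *WSD* and 288 to 3289 in *T* + *WSD*. The defining markers *MSLN* (mesothelin, 17.7 to 151 CPM in *T* + *WSD*) and *KRT19* (a keratin, 5.94 to 64.7) stayed above 0 in every *T* + *WSD* animal. Endothelial markers rose in 5 of 9 genes (summed 1044 to 1749 CPM in *C*, 1963 to 3061 in *T* + *WSD*), beside 7.18% of all genes. The other lists held at most 1 gene that rose, too few to tell from that share. Adipocyte markers rose in 1 of 13, *LEP* (summed 2740 to 19958 against 17632 to 27192), and macrophage markers in 1 of 10, *MSR1* (236 to 1518 against 640 to 1360). B and plasma cell genes rose in 1 of 5 tested, *BANK1* (summed over 9 listed genes, 7.59 to 31.8 against 34.7 to 44.4), fibroblast genes in 1 of 10, *DPT* (8624 to 26226 against 7841 to 17182), and T and NK cell genes in 0 of 9 (9.66 to 52.4 against 9.61 to 34.4).

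Single animals differed in how the mesothelial and ribosomal protein levels stood to each other. *C* replicate 1, high in ribosomal protein genes, had the highest mesothelial sum of all (40064 CPM) and the lowest adipocyte sum (2740). *C* replicate 3, as high in ribosomal protein genes, had 9728 and 13188, and *C* replicate 5, the low control, had the lowest mesothelial sum of *C* (2808), although *C* replicate 2 had the lowest mean log2 CPM of the mesothelial genes (5.62, beside 5.73 in replicate 5). In *WSD*, replicate 20, with the highest median distance of the ribosomal protein genes from *C* (0.05), had a mesothelial sum of 1380 CPM, and replicate 23, with the lowest (-0.43), had 3357 and a mean log2 CPM of 5.97, the second highest of *WSD*, while *WSD* replicate 21 was low in both (-0.40 and 818 CPM). With the mean of the mesothelial genes as a covariate, the median log2 fold change of the members in *T* + *WSD* against *C* was -0.29. After adjustment 0 members and 0 of all tested genes passed. At an unadjusted p under 0.05, 3 members were lower, but the share of all genes at that threshold was not computed. The mesothelial mean ran from 5.62 to 7.20 log2 CPM in *C* and from 2.91 to 4.97 in *T* + *WSD*, without overlap. Covariate and treatment are therefore confounded in this fit, which cannot tell them apart. The part of cell composition in the lower ribosomal protein levels was not tested.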

How the data were processed

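Whole-transcriptome RNA-seq was done on omental WAT of 24 animals, 6 per group, with groups and replicate numbers taken from the sample labels. The authors depleted ribosomal RNA, trimmed single reads (FastQC 0.11.5 and Trimmomatic 0.36 in the submitters' processing notes), aligned them to rheMac8 with STAR 2.5.2b and deposited the raw counts of every gene in 1 table that was not normalized. The counting tool, its strand setting and the annotation are not given in the sources used here, so that counts of near-identical genes, which ribosomal protein genes share with many processed copies, and of overlapping or antisense genes are uncertain. The authors tested with DESeq2 1.18.1. Symbols came from a gene name table, which named 17621 of the 32386 genes, and 7255 genes were at 0 in every library. Gene positions, lengths and sequences were not used here.

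Members followed the naming rule, and the members, gene lists and comparisons were chosen with earlier results of these data known. Genes were kept by filterByExpr (minimum count 10, minimum total 15) and fitted with edgeR 4.0.16 (limma 3.58.1, R 4.3.3; TMM, glmQLFit with robust=TRUE, quasi-likelihood F-test) in 1 fit with 4 groups. All p values are two-sided, with Benjamini-Hochberg adjustment over all tested genes. The threshold was 0.05, and 0.1 for the interaction. CPM are counts over the TMM-scaled library size, times 1000000, and distances from the *C* mean used log2 CPM with a prior count of 1. Of 60 within-group library pairs, 0 held identical values. Labels do not say more than that the samples come from separate animals of a group. Library depth sets counting error only, which is small beside the spread between animals except in low genes such as *RPL39*.

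Members described in full were the 6 with the largest fall and the 6 with the largest rise in *T* + *WSD* against *C* (1 had a positive value), the 3 largest each way in *WSD* against *C*, *T* against *C* and the interaction, and members fixed for their roles. *RPS2*, *RPS25*, *RPL28*, *RPS28*, *RPL8* and *RPL10A* were added after their values were seen. From the other lists, the largest change each way and those passing in the interaction were named, and the rest of those named were likewise chosen after their values were seen. Values of 3 tested members are not reported singly here, though the counts and medians include them.

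Alternatives were DESeq2 1.42.0, RLE or upper-quartile scaling, TMM without the members, no filter, at least 10 counts in every animal, only the groups compared, the library kind as a covariate, the 16 libraries alone, the mesothelial mean as a covariate, robust=FALSE, the 1.5-fold threshold, an adjusted p under 0.05 for the interaction, and each animal left out in turn. Adding *RPS6* and a plain library size without members and ENSMMUG00000038258 were chosen after seeing the data. The scripts were tested on simulated data. Bisulfite sequencing was not analysed here.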

Additional observations from a re-analysis of the deposited data

Results flagged for a closer look

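In each group of 6 animals, the highest and lowest values of 24 named members, of the median distance from *C* and of the members' share of the counts were compared with the nearest other animal, and 8 of 104 groups held an animal that stood far apart by Dixon's test at 95%. Chance gives about 1 in 20 such groups. *RPL31* gave 3 of the 8, with 48.8 CPM in *T* replicate 14 (others 1.34 to 11.8), 59.1 in *WSD* replicate 22 (others 6.10 to 12.6) and 91.4 in *T* + *WSD* replicate 11 (others 3.39 to 9.24). High values also stood apart in *RPS12* (223 CPM in *T* + *WSD* replicate 8, others 172 to 186), *RPL19* (165 in *T* + *WSD* replicate 8, others 104 to 125) and *RPL39* (3.79 in *WSD* replicate 20, others 1.18 to 1.97). Low values stood apart in *RPS27L* (15.7 in *T* replicate 17, others 19.2 to 20.9) and *RPL22* (219 in *WSD* replicate 23, others 292 to 324). *T* + *WSD* replicate 8, which gave 2 of these, was the smallest library, with 6899185 counts.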

How the results depend on the processing

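The median log2 fold change of the members kept its direction in all 6 comparisons under every alternative run. Leaving out 1 animal at a time moved it from -0.54 to -0.37 in *T* + *WSD* against *C*, from -0.27 to -0.12 in *WSD* against *C*, from -0.23 to -0.08 in *T* against *C*, from -0.35 to -0.25 against *WSD*, from -0.34 to -0.27 against *T* and from -0.20 to -0.04 in the interaction. The 48 members that fell in *T* + *WSD* against *C* became 0 in the 16 libraries alone, 0 with the mesothelial covariate and 9 with the fold threshold of 1.5, and 23 to 50 when 1 animal was left out. Elsewhere the count was 42 to 49, and DESeq2 and edgeR shared 48. The 2 that fell against *WSD* became 6 by DESeq2 (2.91% of all genes), 1 with RLE scaling, and 0 with upper-quartile scaling, no filter, only the groups compared, the 16 libraries, the mesothelial covariate, the plain library size or the fold threshold, and 0 to 6 with 1 animal left out. The 6 that fell against *T* (3.2% of all genes) became 11 by DESeq2 (5.31% of all genes) and 29 with only the groups compared (6.3% of all genes). They became 0 in the 16 libraries, 0 with the mesothelial covariate and 0 with the fold threshold, and 0 to 10 with 1 animal left out. Fewer samples entered the fits to 16 libraries and to the groups compared; the cause of the other changes was not tested. All counts of 0 in the other comparisons stayed at 0 under the alternatives run. Direction turned in members near 0 or with few or uneven counts. *RPS27L* in *T* + *WSD* against *C* was 0.015 with the mesothelial covariate. *RPL19* in *WSD* against *C* was -0.084 in the 16 libraries and -0.024 without *WSD* replicate 20 (range -0.024 to 0.24). *RPL39* was -0.22 in *T* against *C* and 0.15 in the interaction in the 16 libraries. *RPL32* in *T* against *C* ran from -0.030 to 0.11 with 1 animal left out, and was -0.012 without *C* replicate 2, -0.030 without *C* replicate 5, -0.012 without *C* replicate 6 and -0.0032 without *T* replicate 13. *RPL31* in the interaction was -0.35 without *T* + *WSD* replicate 11 (range -0.35 to 2.20). No paired analysis was possible because the groups share no replicate number.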
